A study of Mus musculus with 19 samples.

Results

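Induced pluripotent stem cells (iPSC) were compared with epiblast stem cells (EpiSC) gene by gene, and the functions of the changed genes are described here together with their behavior in each mouse strain. The comparison used 14 of the 19 RNA-seq libraries of the series, namely 12 iPSC libraries from 10 clones and 2 EpiSC libraries, grouped by the cell state in the sample titles. The iPSC of NOD/ShiLtJ male clones 3 and 35 were left out. In those libraries 5.59% and 5.62% of uniquely aligned read pairs were counted on genes, against 1.41% to 1.74% in the 12 iPSC compared.

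All iPSC were made from mouse embryonic fibroblasts with a lentivirus that carries Oct4, Klf4, Sox2 and Myc on 1 transcript. The vector expresses them constitutively and was not removed, so reads of vector origin in the rows of Pou5f1, Klf4, Sox2 and Myc cannot be told apart from those of the cells' own genes. The NOD/ShiLtJ (NOD) iPSC were 2 female clones, 7 and 52, at passages 17 and 18. The WSB/EiJ (WSB) iPSC were male clones 12 and 25 and female clones 23 and 28, at passages 16 to 20. Both strains were grown in 2iS, a serum-containing ESC medium with inhibitors of GSK3B and MEK. The 129S1/SvImJ (129) iPSC were male clones 1 and 17 and female clones 5 and 8 in ESC medium with LIF (ESC/LIF) at passages 17 to 21, and clones 1 and 17 again after a move to 2iS, at passages 31 and 30. The EpiSC were 1 male NOD line at passage 38 and 1 male line of a 129/Sv background at passage 16, both in EpiSC medium, and WSB had none. Cell state, medium, origin from reprogrammed fibroblasts and depletion of feeder cells, stated for the iPSC alone, cannot be told apart. The 3 male ESC lines of NOD, WSB and 129, all at passage 6 in medium with the same inhibitors and serum, stood in the same fit and are given as a reference.

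Mouse pluripotent cells are held in culture in a naive state, which resembles the epiblast before implantation, or in a primed state, which resembles the epiblast after it. ESC are naive and depend on LIF, STAT3 and a network of transcription factors that includes Esrrb, Klf2, Klf4, Tfcp2l1 and Tbx3. EpiSC are primed, depend on FGF and Nodal or activin signaling, and express factors such as Fgf5, Otx2 and Zic2 together with genes of early germ layers.

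The gene with the smallest adjusted p in the comparison was Larp7, which encodes a protein of the 7SK ribonucleoprotein that restrains transcription elongation. Its row held 12878 CPM (read counts scaled to a common library size) in the NOD EpiSC and 14896 in the 129 EpiSC. In the 12 iPSC it ranged from 84.3 to 305.7 around a median of 209.1, and in the 3 ESC from 87.2 to 376.2. Every iPSC and every ESC was therefore far below both EpiSC. The log2 fold change of iPSC against EpiSC was -6.10 ± 0.30 (SE, 12 against 2 libraries, edgeR adjusted p = 4.72e-12). In GRCm38, Larp7 lies on the minus strand at chr3:127536714-127553349, and 5 hairpins of the miR-302/367 cluster lie on the plus strand within its bounds, at chr3:127545228-127545807. This cluster is known for its abundance in pluripotent cells and for its action on the cell cycle. A mature sequence of each hairpin, from RefSeq annotation of GRCm38.p6, is shown because the cluster shares its position with the gene of the smallest adjusted p. Capitals mark the seed, bases 2 to 8.
miR-302b-3p: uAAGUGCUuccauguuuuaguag
miR-302d-3p: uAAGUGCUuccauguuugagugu
miR-302c-3p: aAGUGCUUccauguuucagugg
miR-302a-5p: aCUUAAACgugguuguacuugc
miR-367-3p: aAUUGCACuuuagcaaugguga
Only miR-302b-3p and miR-302d-3p share a seed in this set, and that of miR-302c-3p holds the same letters moved by a base. The sequence of miR-302a-3p was not in the annotation used, so its seed was not compared. The rows of the 5 hairpin genes themselves held at most 4 counts each over the 12 iPSC and at most 1 in either EpiSC, so they gave no usable level. Whether the counts of the Larp7 row came from Larp7 or from transcripts on the opposite strand was not tested.

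A similar arrangement holds for Glyctk, the glycerate kinase of serine and fructose breakdown, which is 1 of the genes used to check the comparison. Its row held 437.3 CPM in the NOD EpiSC and 212.1 in the 129 EpiSC, and between 0 and 9.78 in the 12 iPSC, with a median of 0. No iPSC reached the lower of the EpiSC values (log2 fold change -6.86 ± 0.54, adjusted p = 1.61e-08). The gene lies on the minus strand at chr9:106152857-106158138, and the hairpin gene Mir135a-1 lies within it on the plus strand. Its mature sequence at chr9:106154140-106154162, in the same notation, is shown for the same reason.
miR-135a-5p: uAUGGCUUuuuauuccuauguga
The row of Mir135a-1 went the other way, with 19.5 to 56.3 CPM in the iPSC against 11.5 and 8.16 in the EpiSC, on 52 counts in all iPSC and 3 in both EpiSC.

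Between 92996 and 226794 read pairs were counted on genes in the iPSC libraries, and 220983 and 191571 in the NOD and 129 EpiSC. The smallest amount taken as detectable, 3 counts, was 14.6 to 36.9 CPM in single iPSC libraries, and 17.3 and 24.5 CPM in the EpiSC, which covers counting error only. The libraries were stranded, and the strand setting of the authors' counting is not given in the sources used here, so reads of a gene and of a gene with exons on the opposite strand cannot be told apart. Had the counting used the strand opposite to the library, rows without such exons, that of Larp7 included, would also hold reads of the other strand. This was not tested, and values below are those of the row a gene names. Genes with such exons, called overlapped genes below, held 59.4% to 65.7% of the gene counts in iPSC, 67.0% in the NOD EpiSC and 73.9% in the 129 EpiSC. They made up 24.6% of all annotated genes in the files and 87 of the 100 genes with the most counts. Besides those marked where described, they include Sox4, Ctnnb1, Ccnd1, Adam17, Notch3, Nnat, Hmgcs1, Psph, Slc7a10, Slc18a2, Thbs1 and Nid1. Gapdh, one of the most abundant messenger RNAs of most cells, had 0 to 44.8 CPM in the iPSC and 23.0 and 24.5 in the EpiSC. Title and source name gave different conditions in 19 of 19 samples. The titles were used, and 4 genes of Chromosome Y went against the sex of the title in 0 libraries.

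The labels of cell state held for the naive marker genes but unevenly for the primed ones. Zfp42 and Dppa5a, genes used to recognize naive cells, had 0 counts in both EpiSC and 257.4 to 599.0 and 289.5 to 596.6 CPM in the iPSC. Fgf5 had 138.7 CPM and Cer1 57.1 CPM in the 129 EpiSC, with no count in any iPSC. In the NOD EpiSC, Fgf5, Cer1, T and the E-cadherin gene Cdh1 had no count, which allows up to 17.3 CPM each. T and Cdh1 stood at 40.8 and 310.0 CPM in the 129 EpiSC. The 2 EpiSC lines thus differed in Fgf5, Cer1, T and Cdh1. The iPSC also held Cdh1, at 135.4 to 440.1 CPM. Some other primed genes were alike or higher in the NOD EpiSC. Otx2 had 3 counts in each line, and Zic2 and Sox3 had 12 and 13 in the NOD line and 4 and 1 in the 129 line. Others, such as Lefty1 with 2 and 11 counts, were higher in the 129 line. The values of both lines are given for the genes described below. In bulk RNA, fewer cells of a type and less RNA per cell cannot be told apart.

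Of 3986 genes tested with edgeR, 28.3% were past an adjusted p of 0.05 between iPSC and EpiSC, 448 (11.24%) higher in iPSC and 681 (17.08%) lower. Every iPSC lay on one side of both EpiSC in 904 (22.7%) of all genes tested, and 809 of them were past the threshold. Changed genes overlap less by the nature of the test, so this is no separate support. The median log2 fold change was 0.10 over all genes tested, 0.41 over genes without opposite-strand exons and -0.27 over overlapped genes. Overlapped genes were 47.9% of genes tested, 31.2% of those higher in iPSC and 76.1% of those lower. Without the 129 EpiSC, 585 genes were past the threshold, and 944 without the NOD EpiSC.

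Since both classes of genes were centered apart, the fit was repeated with scaling within each class, an alternative added after seeing the data. This moved the log2 fold changes by -0.33 in genes without opposite-strand exons and by 0.33 in overlapped genes. It left 399 genes higher in iPSC (10.7% of 3743 tested) and 546 lower (14.6%). Of the genes past the threshold without it, 756 were past the threshold in the same direction and 0 in the other. With library sizes from uniquely aligned read pairs, log2 fold changes rose by a median of 0.52, and 1110 genes were higher and 325 lower. Directions below are relative to the scaling over all genes. Counts of list members are read beside the 11.24% higher and 17.08% lower over all genes tested.

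**Figure D1:**
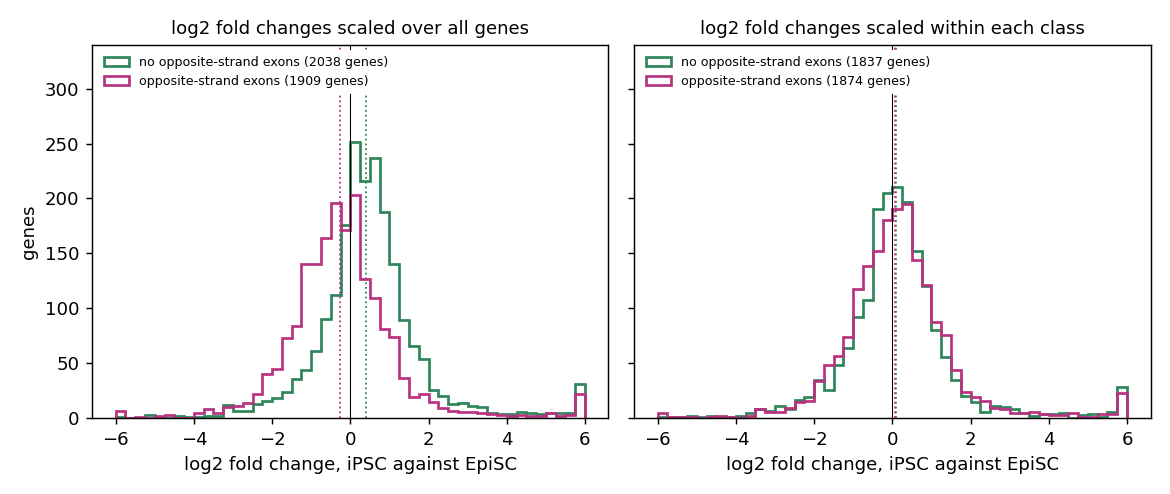
Number of genes (vertical axis) by log2 fold change of iPSC against EpiSC (horizontal axis, values past 6 in the outer bins), for genes with and without exons on the opposite strand, scaled over all genes (left) and within each class (right, genes of both fits). Dotted lines are class medians, which on the left lie at 0.41 and -0.27 and on the right close to each other.

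Of the lists described here, the naive state genes had the largest share of changed members. Of 19 tested members, 18 were higher in iPSC and 0 lower, with a median log2 fold change of 5.19 beside 0.10 over all genes. With class-wise scaling 17 of 18 were higher. Without the NOD EpiSC 14 of 22 were higher, and without the 129 EpiSC 16 were higher and 1 lower. Klf4 of this list is also carried by the vector. Of the 7 members not tested for low counts, Nr5a2, Tcl1 and Fbxo15 had 82, 55 and 75 counts in the iPSC and none in the EpiSC. The exception was Gbx2, a homeobox factor, with 9.78 to 160.0 CPM in iPSC, 241.7 in the NOD EpiSC and 24.5 in the 129 EpiSC (log2 fold change -1.17 ± 0.59, adjusted p = 0.143).

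Several naive genes had no count or 1 count in the EpiSC. Tdh encodes threonine dehydrogenase, the first enzyme of threonine breakdown, on which mouse ESC are known to depend. It had 0 counts in both EpiSC and 127.1 to 256.8 CPM in the iPSC, with a median of 187.7. With 3 counts over both EpiSC taken as the limit, the level over the pooled counts of the 12 iPSC was at least 19.6-fold higher (adjusted p = 8.11e-07), and folds against EpiSC without a count are given in this way below. It shares exons with the opposite-strand gene Gm17232. Dppa4, a chromatin-associated pluripotency gene, and Pecam1, an adhesion protein used to stain ESC, had no count in either EpiSC, and in the iPSC 40.8 to 98.4 and 15.2 to 78.3 CPM. Their pooled iPSC levels were at least 6.89-fold and 4.80-fold higher (adjusted p = 0.000291 and 0.00114). Esrrb, an orphan nuclear receptor of the same network, had 169.2 to 379.3 CPM in iPSC and none in EpiSC, at least 26.3-fold higher (adjusted p = 6.39e-07). Fgf4, the ligand through which naive cells signal toward the primed state, had 65.3 to 166.3 CPM in iPSC, 0 in the NOD EpiSC and 8.16 in the 129 EpiSC (log2 fold change 4.65 ± 0.67, adjusted p = 2.52e-05).

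Of 15 tested genes listed as shared by both states, 10 were higher in iPSC and 0 lower, with a median of 1.42. This list includes Dnmt3l, described below with the DNA methylation genes, which had 0 and 8.16 CPM in the NOD and 129 EpiSC. With class-wise scaling 8 were higher, without the NOD EpiSC 7 of 16 and without the 129 EpiSC 6 of 16. Mybl2, a transcription factor of the G2 and mitotic genes, ranged from 281.9 to 599.0 CPM in iPSC and stood at 40.3 and 16.3 in the NOD and 129 EpiSC (log2 fold change 3.64 ± 0.42, adjusted p = 1.73e-06). L1td1, an RNA-binding protein derived from a transposon, ranged from 702.9 to 1313 CPM against 345.3 and 138.7 (2.00 ± 0.34, adjusted p = 0.000157). Sox2 ranged from 230.1 to 435.7 CPM against 63.3 and 130.5 (1.88 ± 0.32, adjusted p = 0.00019), with vector reads as a possible part. In all 3 genes no iPSC overlapped an EpiSC. Sall4 and Lin28a, a zinc finger factor and a blocker of let-7 processing, were not past the threshold, at log2 fold changes of 0.42 ± 0.34 (adjusted p = 0.376) and -0.35 ± 0.38 (0.517). Sall4 had 143.9 and 89.7 CPM and Lin28a 230.2 and 163.2 CPM in the NOD and 129 EpiSC, within the iPSC ranges of 88.0 to 293.4 and 55.9 to 270.7.

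The primed state genes went mostly the other way with the scaling over all genes, on fewer reads. Of 27 members 10 could be tested, of which 8 were lower in iPSC and 1 higher, with a median of -2.11. With uniquely aligned pairs as library size 3 of 10 were lower and 2 higher. DESeq2 gave 4 lower and 1 higher of 18. With class-wise scaling 5 of 9 were lower and 0 higher, and with either EpiSC left out 6 of 13 (without NOD) and 5 of 12 (without 129) were lower. Sox4, an HMG box factor, ranged from 9.78 to 110.7 CPM in iPSC, around a median of 33.6, and had 454.6 CPM in the NOD EpiSC and 620.0 in the 129 EpiSC. All iPSC were below both lines (log2 fold change -3.72 ± 0.33, adjusted p = 6.58e-08). Its relative Sox11 ranged from 0 to 55.9 CPM against 293.5 and 130.5 (-3.48 ± 0.63, adjusted p = 0.000295), and Grb10, an imprinted adaptor that damps insulin signaling, from 0 to 185.0 CPM against 402.8 and 416.0 (-2.88 ± 0.63, adjusted p = 0.00176). Zic5, a zinc finger factor, had 0 to 53.5 CPM against 86.3 and 97.9 (-2.23 ± 0.71, adjusted p = 0.0231), and DESeq2 gave it an adjusted p of 0.0509. Without the NOD EpiSC the adjusted p was 0.0543 for Sox11 and 0.0932 for Zic5, and without the 129 EpiSC it was 0.134 for Zic5. Nes, the intermediate filament of neural precursors and the 1 of 3 tested neuroectoderm genes that changed, had 0 to 61.5 CPM against 143.9 and 236.6 (-3.16 ± 0.53, adjusted p = 0.000151). None of the 18 mesendoderm genes had enough counts to be tested.

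**Figure D2:**
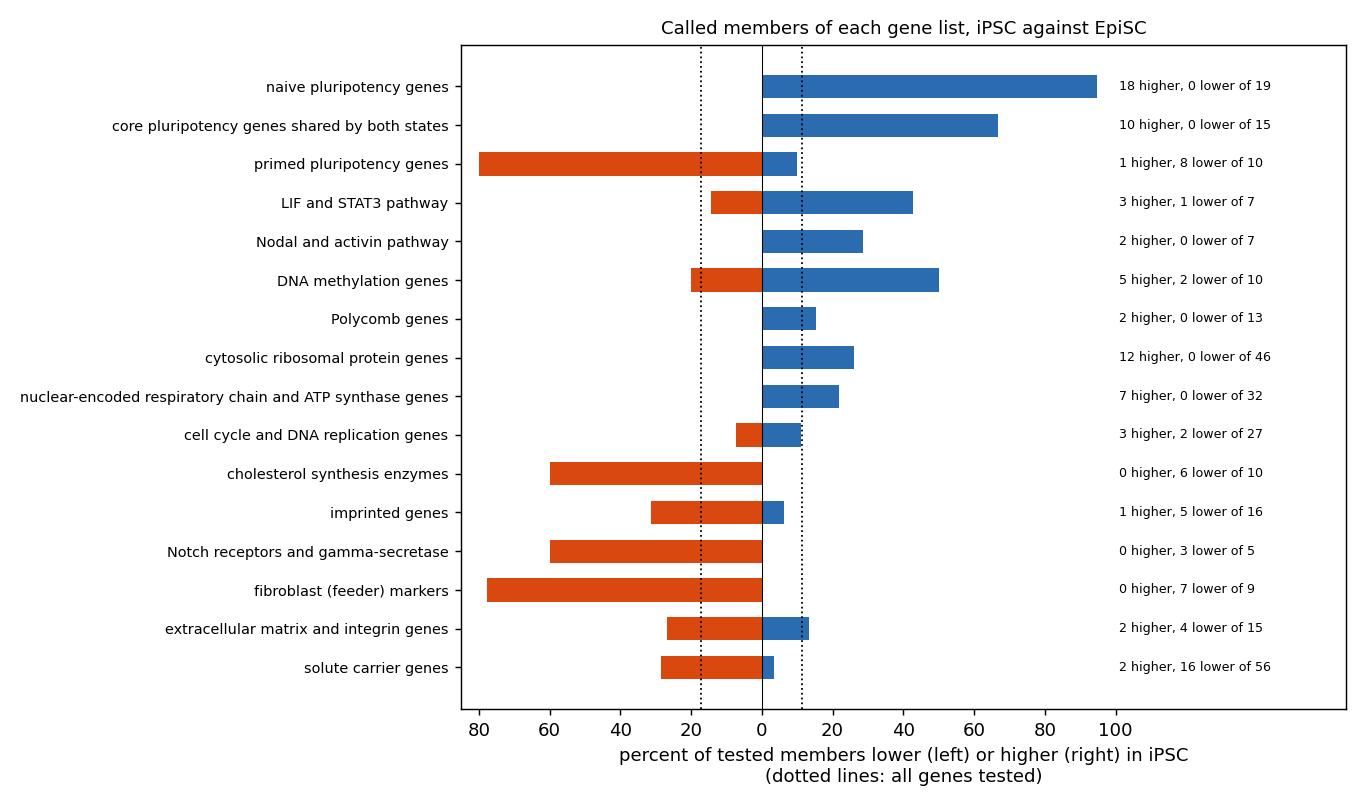
Percent of tested members of 16 gene lists that were higher (right, blue) or lower (left, red) in iPSC than in EpiSC at an adjusted p under 0.05, with the counts at the right. The dotted lines are the shares over all genes tested, 11.24% and 17.08%. The naive genes reach 18 higher of 19 and the primed genes 8 lower of 10.

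Signaling genes changed in small numbers. Of 7 tested genes of the LIF and STAT3 pathway, 3 were higher and 1 lower, with a median of 2.98, and with class-wise scaling also 3 and 1. Tfcp2l1, a STAT3 target, had 123.0 to 498.8 CPM in iPSC, 0 in the NOD EpiSC and 8.16 in the 129 EpiSC (log2 fold change 5.90 ± 0.97, adjusted p = 0.000123), and missed the threshold with limma voom (adjusted p = 0.0629). Klf4, another target, had 135.4 to 522.9 CPM in the iPSC and no count in the EpiSC, and Myc had 108.3 to 328.0 CPM in iPSC, 5.75 and 49.0 in the EpiSC and 0 to 14.5 in the ESC. Both are carried by the vector. Jak1, the kinase that carries the LIF signal to STAT3, was the lower member, at 88.0 to 209.2 CPM against 328.0 and 432.4 (-1.51 ± 0.28, adjusted p = 0.000453). It overlaps Raver2, which had 0 to 39.1 CPM in iPSC and 17.3 and 16.3 in EpiSC.

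Of 6 tested FGF and ERK genes, 2 were higher, Fgf4 and Etv5. Etv5, an ETS factor downstream of FGF, had 33.6 to 163.4 CPM against 34.5 and 48.9 (log2 fold change 1.34 ± 0.47, adjusted p = 0.0352). The groups overlapped, and with class-wise scaling (adjusted p = 0.119) and in DESeq2 (0.0976) it was not past the threshold, nor with either EpiSC left out (0.265 and 0.114). Of 7 tested Nodal and activin genes, 2 were higher and 0 lower, and with class-wise scaling neither was. Tdgf1, the Nodal co-receptor Cripto, had 156.5 to 356.8 CPM in iPSC and 11.5 and 155.0 in the NOD and 129 EpiSC (1.46 ± 0.49, adjusted p = 0.029). Lefty2, a secreted Nodal inhibitor, had 15.2 to 279.8 CPM against 0 and 32.6 (3.10 ± 1.05, adjusted p = 0.0313). In both genes the NOD EpiSC was the lower line, and without it the adjusted p was 0.474 and 0.285. Of 6 tested Wnt genes, 2 were lower, Ctnnb1 (beta-catenin) and Ccnd1 (cyclin D1), and 0 with class-wise scaling or with uniquely aligned pairs as library size. Without the 129 EpiSC neither was past the threshold (adjusted p = 0.265 and 0.174). Ctnnb1 had 174.3 to 401.3 CPM against 402.8 and 448.7 (-0.72 ± 0.26, adjusted p = 0.0431), and its DESeq2 adjusted p was 0.0581.

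Of 5 tested genes for Notch receptors and gamma-secretase parts, 3 were lower and 0 higher, and 4 of the 5 are overlapped genes. Aph1a, a scaffold subunit of gamma-secretase, had 2365 CPM in the NOD EpiSC and 930.0 in the 129 EpiSC, and 0 to 36.9 in the iPSC (log2 fold change -7.25 ± 0.43, adjusted p = 9.64e-11). Its overlap partner Car14, a membrane carbonic anhydrase on the opposite strand, had 207.2 and 293.7 CPM in the EpiSC and 36.9 to 123.1 in the iPSC, so both rows were lower in every iPSC. Adam17, a protease that sheds receptor ectodomains, had 91.4 to 193.1 CPM against 328.0 and 530.3 (-1.64 ± 0.24, adjusted p = 3.27e-05). Notch3 had 0 to 68.1 CPM against 92.1 and 130.5 (-1.63 ± 0.53, adjusted p = 0.0248), and with class-wise scaling its adjusted p was 0.0786, without the NOD EpiSC 0.06 and without the 129 EpiSC 0.223.

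The DNA methylation genes changed in both directions with the scaling over all genes. Of 10 tested, 5 were higher and 2 lower in iPSC, and with class-wise scaling 4 and 1. With uniquely aligned pairs as library size 6 were higher and 0 lower. Among the higher genes were the dioxygenases that oxidize methylcytosine. Tet2 had 123.0 to 313.8 CPM against 17.3 in the NOD and 0 in the 129 EpiSC (log2 fold change 4.33 ± 0.64, adjusted p = 3.75e-05), and it overlaps Gm42567. Tet1 had 123.1 to 652.1 CPM against 97.8 and 24.5 (2.32 ± 0.64, adjusted p = 0.00981), and its adjusted p without the 129 EpiSC was 0.152. Dnmt3l, the cofactor without catalytic activity, had 28.1 to 251.4 CPM against 0 and 8.16 (5.08 ± 0.94, adjusted p = 0.000409), overlaps Aire, and missed the threshold with limma voom (adjusted p = 0.11). Zfp57, which keeps methylation at imprinted regions, had 208.9 to 447.5 CPM against 51.8 and 114.2 (1.73 ± 0.35, adjusted p = 0.000964, and 0.0566 without the NOD EpiSC). The lower genes were both de novo methyltransferases. Dnmt3b had 33.6 to 184.6 CPM against 264.7 and 220.3, and Dnmt3a 9.37 to 82.5 against 189.9 and 73.4. The Dnmt3a values of the groups overlapped, and those of Dnmt3b did not. The maintenance enzyme Dnmt1 was not past the threshold, at 179.0 to 352.1 CPM against 247.4 and 155.0 (0.51 ± 0.26, adjusted p = 0.151).

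Of 13 tested Polycomb genes, 2 were higher and 0 lower, both overlapped genes, a share near the one over all genes tested, and with class-wise scaling 3 were higher. Eed, the subunit of PRC2 that reads methylated histone H3, had 98.0 to 325.9 CPM against 92.1 and 57.1 (log2 fold change 1.69 ± 0.39, adjusted p = 0.00298). Mtf2, which recruits PRC2 to DNA, had 120.7 to 239.2 CPM against 63.3 and 89.7 (1.26 ± 0.34, adjusted p = 0.00913). Eed was not past the threshold without the 129 EpiSC (adjusted p = 0.0715), nor Mtf2 without the NOD EpiSC (0.148). Suv39h1, a methyltransferase for the heterochromatin mark on histone H3, had 355.1 to 3044 CPM in iPSC and 40.3 and 40.8 in the EpiSC (5.23 ± 0.79, adjusted p = 4.72e-05). It overlaps the opposite-strand gene Gm14820. Of 24 tested lysine methyltransferase and demethylase genes, 2 were higher and 2 lower, and with class-wise scaling 2 and 4.

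Of 30 imprinted genes 16 were tested, of which 5 were lower in iPSC and 1 higher, with a median of -0.67, and with class-wise scaling 4 lower and 0 higher. Gnas, which encodes the stimulatory G protein subunit, had 73.8 to 169.2 CPM against 822.9 and 554.7 (log2 fold change -2.54 ± 0.25, adjusted p = 2.11e-07). Nespas, its antisense transcript, had 0 to 48.9 CPM against 258.9 and 252.9 (-3.12 ± 0.46, adjusted p = 3.22e-05). These rows overlap on opposite strands, so their changes count as 1 locus. Nnat, a neuronal membrane protein gene, had 68.5 to 218.9 CPM against 379.8 and 416.0 (-1.67 ± 0.31, adjusted p = 0.000381). In these genes and in Grb10 every iPSC was below both EpiSC. H19 varied within the iPSC from 0 to 324.5 CPM, with 11.5 and 24.5 in the EpiSC, and was not past the threshold (adjusted p = 0.712).

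In metabolism, cholesterol synthesis genes changed in 1 direction. Of 10 tested, 6 were lower in iPSC and 0 higher, with a median of -1.59, and with class-wise scaling 6 of 8 were lower. Without the 129 EpiSC 4 of 11 were lower. Hmgcs1, the HMG-CoA synthase, had 18.7 to 185.8 CPM in iPSC, around a median of 95.9, against 351.0 in the NOD and 489.5 in the 129 EpiSC (log2 fold change -2.06 ± 0.38, adjusted p = 0.000359). Cyp51, the lanosterol demethylase, had 16.09 to 67.1 CPM against 132.4 and 285.5 (-2.39 ± 0.38, adjusted p = 9.3e-05), and overlaps Akap9, whose row was also lower, at 28.1 to 114.3 against 397.1 and 318.2. Srebf2, the transcription factor that drives these enzymes, had 19.6 to 88.0 CPM against 224.4 and 179.5 (-1.67 ± 0.29, adjusted p = 0.000202). Srebf1, its relative, had 0 to 55.9 CPM against 97.8 and 122.4 (adjusted p = 0.00612). The iPSC lay below both EpiSC in all 6.

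Of 15 tested glycolysis genes, 0 were higher and 1 lower in iPSC, with a median of -0.15, and with class-wise scaling also 0 and 1. The 1 gene was Pfkl, the liver form of phosphofructokinase, at 17.5 to 123.0 CPM against 212.9 and 122.4 (log2 fold change -1.45 ± 0.42, adjusted p = 0.0124), the groups overlapped, and without the NOD EpiSC its adjusted p was 0.272. Ldha, lactate dehydrogenase, had 204.2 to 496.7 CPM against 460.4 and 171.3, and the EpiSC differed more from each other than from the iPSC median of 298.6 (adjusted p = 0.932). Of 32 tested nuclear genes of the respiratory chain and ATP synthase, 7 were higher and 0 lower, with a median of 0.78, and with class-wise scaling 6 and 0. Of the 32, 11 are overlapped genes, and the median over all tested genes without opposite-strand exons was 0.41. Uqcr10, a small subunit of complex III, had 36.9 to 152.5 CPM against 23.0 and 8.16 (2.19 ± 0.57, adjusted p = 0.00665), and its adjusted p was 0.105 without the 129 EpiSC and 0.0894 with limma voom. Atp5b, the catalytic subunit of ATP synthase, had 544.6 to 941.3 CPM against 425.8 and 350.8 (0.89 ± 0.24, adjusted p = 0.00913), and with class-wise scaling its adjusted p was 0.0638, and without the 129 EpiSC 0.117.

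Of 16 tested genes of threonine, glycine and one-carbon metabolism, 3 were higher and 2 lower, and with class-wise scaling also 3 and 2. Besides Tdh, Gldc, the decarboxylase of the glycine cleavage system, was higher at 54.5 to 345.4 CPM against 34.5 and 32.6 (log2 fold change 2.51 ± 0.65, adjusted p = 0.00651). Mtr, methionine synthase, was the third, at 10.99 to 112.6 CPM against 11.5 and 0 (2.78 ± 0.92, adjusted p = 0.0272). Besides Glyctk, Psph, the last enzyme of serine synthesis, was lower at 32.2 to 251.4 CPM against 385.5 and 269.2 (-1.41 ± 0.43, adjusted p = 0.0179), and with class-wise scaling its adjusted p was 0.0684, without the NOD EpiSC 0.205 and without the 129 EpiSC 0.0529. Gldc was not past the threshold with either EpiSC left out (adjusted p = 0.0652 and 0.0677).

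Among 56 tested solute carriers the median was -0.18, and 2 were higher and 16 lower, or 2 and 15 with class-wise scaling. With uniquely aligned pairs as library size the order turned, to 10 higher and 7 lower. Slc7a10, a transporter of small neutral amino acids, had 0 to 38.5 CPM against 258.9 and 163.2 (log2 fold change -3.59 ± 0.55, adjusted p = 5.93e-05). Slc18a2, the vesicular monoamine transporter, had 36.9 to 167.6 CPM against 316.5 and 685.2 (-2.46 ± 0.30, adjusted p = 3.78e-06). Slc38a1, a glutamine transporter, had 54.5 to 184.8 CPM against 333.8 and 293.7 (-1.50 ± 0.31, adjusted p = 0.00103). Slc16a11, a monocarboxylate transporter, had 0 to 78.3 CPM against 149.6 and 171.3 (-3.57 ± 0.70, adjusted p = 0.000674). None of the 12 iPSC overlapped an EpiSC in these 4 genes. Slc7a10 shares exons with the opposite-strand gene Lrp3, and Slc18a2 with Gm29261.

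Of 46 tested cytosolic ribosomal protein genes, 12 were higher and 0 lower in iPSC, with a median of 0.83, and with class-wise scaling 10 and 0. Of the 46, 9 are overlapped genes, and the median over all tested genes without opposite-strand exons was 0.41. The summed level of the 96 genes of the family was 9807 to 14855 CPM in the iPSC. It was 8522 CPM in the NOD EpiSC and 5270 in the 129 EpiSC. Rpl4 had 1581 to 2377 CPM against 1416 in the NOD and 677.1 in the 129 EpiSC (log2 fold change 0.86 ± 0.22, adjusted p = 0.00679). Rplp1, of the ribosomal stalk, had 180.9 to 381.4 CPM against 155.4 and 65.3 (1.34 ± 0.35, adjusted p = 0.00685), and Rpl7 130.7 to 337.4 against 97.8 and 16.3 (1.70 ± 0.43, adjusted p = 0.00496). In each the 129 EpiSC was the lower line, and without it the adjusted p was 0.237, 0.168 and 0.13. Rps4y2, counted among the 12, is annotated as a transcribed processed pseudogene on Chromosome 6. It had no count in either EpiSC and 175.9 to 379.4 CPM in the iPSC, which was at least 27.3-fold higher (adjusted p = 1.56e-07). It is 1 of 53 changed genes with no count in either EpiSC, and 3 changed genes had no count in the 12 iPSC. Genes without an EpiSC count passed the filter through other libraries alone and can only come out higher in iPSC. The 53 are therefore not read as a result. Ribosomal protein genes have many processed copies, so their rows are uncertain where the counting could split reads between copies.

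Of 27 tested cell cycle and DNA replication genes, 3 were higher and 2 lower, with a median of 0.17, and with class-wise scaling 2 and 2. Ccne1, cyclin E1, which drives entry into S phase, had 58.7 to 182.8 CPM against 23.0 and 24.5 (log2 fold change 2.46 ± 0.43, adjusted p = 0.000204). Ccnd1 had 28.1 to 167.9 CPM against 218.7 and 310.0 (-1.21 ± 0.33, adjusted p = 0.00843), and with class-wise scaling its adjusted p was 0.061. Of 22 DNA repair genes, 2 were higher and 5 lower, near the shares over all genes, and the 5 were all overlapped genes. They were 3 and 3 with class-wise scaling and 5 and 3 with uniquely aligned pairs as library size. Parp1, the poly(ADP-ribose) polymerase that binds strand breaks, had 439.8 to 655.3 CPM against 218.7 and 81.6 (1.73 ± 0.30, adjusted p = 0.000202).

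Fibroblast marker genes were lower in iPSC, with 7 of 9 tested lower and 0 higher. This held with class-wise scaling in 6 of 10, and without the 129 EpiSC in 1 of 12. The summed level of the 26 markers was 121.8 to 283.6 CPM in the iPSC, 431.6 in the NOD EpiSC, 1844 in the 129 EpiSC and 2058 to 3371 in the ESC. Among the defining collagens, Col1a1 had 0 to 33.6 CPM in iPSC and 17.3 and 24.5 in the EpiSC, and Col1a2 had no count in the 12 iPSC and 11.5 and 73.4 CPM in the EpiSC. Col3a1 and Postn had no count in the NOD EpiSC, 40.8 and 8.16 CPM in the 129 EpiSC, and 1 and 0 counts in all iPSC. Thbs1, a secreted matrix protein, had 0 to 88.0 CPM in the iPSC, 17.3 in the NOD EpiSC and 489.5 in the 129 EpiSC (log2 fold change -3.98 ± 0.77, adjusted p = 0.000619), and without the 129 EpiSC its adjusted p was 0.947. Vim, vimentin, had 0 to 121.9 CPM against 161.1 and 310.0 (-2.50 ± 0.53, adjusted p = 0.00131, and 0.0759 without the 129 EpiSC). Whether the fibroblast markers take part in the other differences between iPSC and EpiSC was not tested.

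Of 15 tested extracellular matrix and integrin genes, 4 were lower and 2 higher, and with class-wise scaling 3 and 1. With uniquely aligned pairs as library size the order turned, to 1 lower and 5 higher. Itgb1, the integrin subunit beta 1, had 56.2 to 170.4 CPM against 149.6 and 603.7 (log2 fold change -1.89 ± 0.36, adjusted p = 0.000473), and without the 129 EpiSC its adjusted p was 0.432. Nid1, a linker of basement membranes, went the other way, with 24.6 to 297.7 CPM against 5.75 and 24.5 (3.42 ± 0.88, adjusted p = 0.00621), and its adjusted p was 0.111 without the NOD EpiSC and 0.151 with limma voom. The summed level of the 26 matrix and integrin genes was 2104 to 3186 CPM in the iPSC, 1450 in the NOD EpiSC and 3859 in the 129 EpiSC. Annotated genes without an established name (Rik and Gm) were 98 lower and 24 higher of 318 tested, and 237 of the 318 are overlapped genes. With class-wise scaling they were 65 lower and 29 higher, and with uniquely aligned pairs as library size 51 lower and 57 higher.

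Among the genes with the smallest adjusted p that were not described before for this comparison, 10 were higher in iPSC by the rule. Besides Rps4y2, Tdh, Mybl2 and Fgf4 they included Hsp90aa1, the inducible HSP90 chaperone, at 1958 to 3501 CPM against 736.6 and 416.0 (log2 fold change 2.15 ± 0.25, adjusted p = 1.73e-06). Trap1a, an X-linked gene first known as a tumor rejection antigen, had 106.6 to 269.4 CPM against 11.5 and 8.16 (4.13 ± 0.52, adjusted p = 4.95e-06). Gab1, an adaptor of receptor tyrosine kinases, had 115.1 to 244.5 CPM against 5.75 and 16.3 (3.97 ± 0.50, adjusted p = 5.22e-06), and overlaps Gm31105. Trim25, a ubiquitin ligase of antiviral signaling, had 58.4 to 152.5 CPM and no count in either EpiSC, at least 9.91-fold higher (adjusted p = 1.81e-05). In all of them the iPSC and the ESC lay above both EpiSC.

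The other 2 of these 10 share exons with a gene on the opposite strand. Lrriq4 had 169.3 to 639.8 CPM in the iPSC, 11.5 in the NOD EpiSC and 0 in the 129 EpiSC (log2 fold change 5.88 ± 0.79, adjusted p = 1.22e-05), and its partner Lrrc34 had 5.84 to 60.9 CPM in iPSC and 0 in both EpiSC. Xist, the RNA that silences an X chromosome, had 863.8 to 2919 CPM in the iPSC, 11.5 and 114.2 in the EpiSC and 4330 to 5953 in the ESC (4.78 ± 0.63, adjusted p = 1.05e-05). The male iPSC alone held 863.8 to 2369 CPM, within the range of all 12, and the ESC and EpiSC were male as well. Tsix, its antisense transcript, which is expressed from active X chromosomes in pluripotent cells, had 0 to 782.4 CPM in the iPSC and no count in either EpiSC. Reads of Xist and Tsix cannot be told apart here, so the row gives no level of either alone.

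Genes without overlap that were absent from both EpiSC had various roles. Sncg, gamma-synuclein, had 48.6 to 328.0 CPM in the iPSC and Gabrp, a GABA receptor subunit, 21.8 to 340.8. Their pooled iPSC levels were at least 18.9-fold and 14.2-fold higher (adjusted p = 0.00102 and 0.00169). Arid5b, a DNA-binding cofactor of a histone demethylase, had 33.6 to 160.9 CPM, at least 10.7-fold higher (adjusted p = 6.02e-05). 4933438K21Rik varied most, from 12.3 to 595.6 CPM (at least 16-fold, adjusted p = 0.0164). With limma voom, Sncg, Gabrp and 4933438K21Rik were not past the threshold (adjusted p = 0.186, 0.15 and 0.283), and 4933438K21Rik was not with either EpiSC left out (0.12 without NOD and 0.102 without 129).

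**Figure D3:**
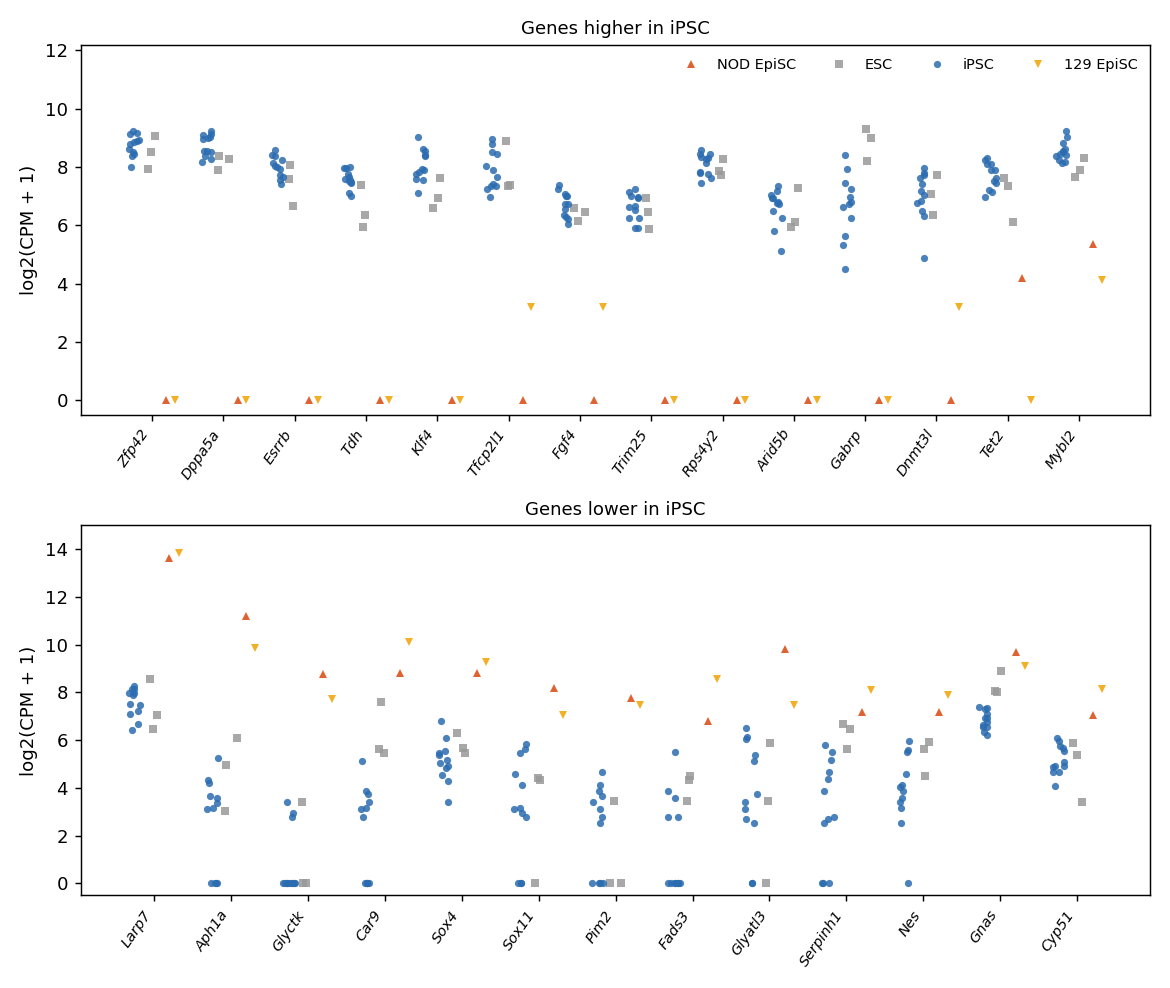
Log2(CPM + 1) of named genes in each of the 12 iPSC, 2 EpiSC and 3 ESC libraries, each point 1 library. Genes higher in iPSC are in the top panel and genes lower in the bottom panel. Larp7 stands at 12878 and 14896 CPM in the EpiSC against at most 305.7 in iPSC, and Zfp42 and Tdh at 0 in both EpiSC.

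The 10 lower genes by the same rule were led by Larp7, and 9 of them are overlapped genes. Car9, a hypoxia-induced carbonic anhydrase, had 0 to 33.6 CPM in the iPSC, 448.8 in the NOD EpiSC and 1109 in the 129 EpiSC (log2 fold change -6.63 ± 0.48, adjusted p = 5.08e-09). Rufy2, a protein of endosome traffic, had 1522 to 2982 CPM against 8338 and 10189 (-2.11 ± 0.18, adjusted p = 5.96e-08). Its partner Hnrnph3, a splicing regulator, had 7.62 to 73.8 CPM against 126.6 and 106.1, so both rows were lower in every iPSC. Pigf, an enzyme of GPI anchor assembly, had 46.7 to 156.5 CPM against 448.8 and 1093 (-3.14 ± 0.27, adjusted p = 4.96e-08), while its partner Rhoq, a small GTPase, had 350.1 to 922.8 against 633.0 and 1819 and overlapped between the groups. Pi4kb, a phosphatidylinositol 4-kinase of the Golgi, had 136.8 to 311.3 CPM against 1128 and 1142 (-2.40 ± 0.22, adjusted p = 9.44e-08).

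The remaining ones were Sox4 and 4 transcripts without an established name. 9530082P21Rik had 313.0 to 1034 CPM against 4304 and 4723 (log2 fold change -2.75 ± 0.24, adjusted p = 5.96e-08), and its opposite-strand partners Flywch1 and Kremen2 stayed at or under 28.8 CPM in all 14 libraries. Which strand the counts of these rows came from was not tested. 4930483K19Rik, opposite the cholesterol synthesis gene Lss, had 254.3 to 578.3 CPM against 1594 and 2847 (-2.32 ± 0.21, adjusted p = 9.44e-08), and Lss itself 6.77 to 43.6 against 51.8 and 73.4. Both rows of that locus were thus lower in every iPSC. 4930473A02Rik had 283.6 to 575.3 CPM against 1444 and 2358 (-2.27 ± 0.21, adjusted p = 1.24e-07), and 4833422C13Rik 0 to 17.5 against 535.2 and 138.7 (-5.85 ± 0.52, adjusted p = 6.58e-08).

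Among genes without overlap, the largest decreases by rule were in Larp7 and 5 others. Fads3, a fatty acid desaturase family member, had 0 to 44.8 CPM in iPSC against 109.3 and 375.3 (log2 fold change -5.16 ± 0.68, adjusted p = 1.02e-05). Pim2, a survival kinase, had 0 to 24.6 CPM against 218.7 and 179.5 (-4.48 ± 0.57, adjusted p = 6.72e-06). Serpinh1, the collagen chaperone HSP47, had 0 to 54.5 CPM against 143.9 and 277.4 (-3.68 ± 0.58, adjusted p = 8.09e-05), and collagen-producing fibroblasts are known to express it. Glyatl3, an acyltransferase family member, had 0 to 89.5 CPM against 891.9 in the NOD and 179.5 in the 129 EpiSC (-4.27 ± 0.61, adjusted p = 2.52e-05, and 0.0652 without the NOD EpiSC). 2310042D19Rik was high in the 129 EpiSC, at 1207 CPM against 109.3 in the NOD line and 13.5 to 77.8 in iPSC (-3.91 ± 0.48, adjusted p = 3.99e-06), and without the 129 EpiSC its adjusted p was 0.159.

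Strain consistency was examined in matched pairs of strain, in 1 fit over 4994 genes. The NOD iPSC were all female and in 2iS, while the 129 iPSC held both sexes and both media. Strain, sex and medium of the iPSC therefore cannot be told apart between the pairs. NOD iPSC (2 libraries) against the NOD EpiSC gave 503 genes past the threshold (10.1%), of which 199 were higher and 304 lower. The 129 iPSC (6 libraries) against the 129 EpiSC gave 1010 (20.2%), of which 367 were higher and 643 lower. Each comparison rests on 1 EpiSC library, whose spread was taken from the other groups. The comparisons share no library. Of the genes changed, 274 were in both sets, which was 54.5% of the NOD set and 27.1% of the 129 set, and 269 of them went the same way, 88 higher and 181 lower. Of the 1010 genes changed in 129, 859 (85.05%) had the same sign in NOD, against 67.6% of all genes tested. In 793 (78.5%) both NOD iPSC lay on that side of the NOD EpiSC, against 57.4% of all genes.

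Several genes with the smallest adjusted p were past the threshold in each strain. The log2 fold change of Larp7 was -5.69 in NOD (adjusted p = 1.54e-07) and -6.46 in 129 (9.32e-12), and that of Aph1a was -7.82 in NOD (1.54e-07) and -6.13 in 129 (1.2e-08). Hsp90aa1 rose by 1.81 and 2.59 (adjusted p = 0.000776 and 3.76e-06), and Mybl2 by 2.98 and 4.34 (0.000608 and 1.54e-05). Tdh was at 250.9 and 135.4 CPM in the NOD iPSC and at 172.3 to 251.4 in the 129 iPSC, with no count in either EpiSC. Gnas changed by -2.41 and -2.52 (adjusted p = 0.000189 and 4.67e-06) and Slc18a2 by -1.71 and -2.91 (0.0261 and 4.51e-06). Other groups were past the threshold in 129 alone, among them Hmgcs1 (-1.42, adjusted p = 0.101 in NOD and -2.66, 0.00017 in 129), Cyp51 (-1.19, 0.202 and -3.08, 3.98e-05) and Rpl4 (0.27, 0.574 and 1.53, 0.000269). The differences between strains in these genes were not past the threshold (adjusted p = 0.503, 0.283 and 0.132).

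The WSB iPSC (4 libraries) could be compared only with the EpiSC of the other strains, and 1387 genes (27.8%) were past the threshold, 666 higher and 721 lower. Strain and cell state cannot be told apart in that comparison, and it shares its EpiSC with the others. Larp7 was at 134.2 to 283.6 CPM, Tdh at 127.1 to 256.8 and Rufy2 at 1522 to 2353 CPM in the 4 WSB iPSC, below, above and below both EpiSC. Without the 129 EpiSC, 760 genes were past the threshold.

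The difference between the NOD and 129 effects was tested directly and was past the threshold in 33 genes (0.661%), 25 more positive in NOD and 8 more negative, with 685 at an unadjusted p under 0.05. In 23 of the 33 the 2 effects had opposite signs, and 16 are genes without overlap. Without NOD iPSC clone 7 the count was 11, and without clone 52 it was 14. Cdh1, the adhesion protein of epithelia and pluripotent colonies, had 0 CPM in the NOD EpiSC and 310.0 in the 129 EpiSC, against 215.9 and 135.4 in the NOD iPSC and 190.4 to 344.5 in the 129 iPSC. The difference of the effects was 7.92 on the log2 scale (adjusted p = 0.00129). Fn1, fibronectin, had 69.0 and 660.8 CPM in the NOD and 129 EpiSC, 1033 and 920.4 in the NOD iPSC and 289.5 to 539.0 in the 129 iPSC, a difference of 4.45 (adjusted p = 0.000277). Both genes were thus lower in the NOD than in the 129 EpiSC.

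Ift81, a part of the transport complex of cilia, showed the reverse. It had 1738 CPM in the NOD EpiSC, 8.16 in the 129 EpiSC and 0 to 12.3 in all 12 iPSC, a difference of effects of -8.34 (adjusted p = 0.00745). Nasp, a histone chaperone, had 1364 and 220.3 CPM in the NOD and 129 EpiSC, 974.4 and 893.3 in the NOD iPSC and 973.4 to 1078 in the 129 iPSC (-2.75, adjusted p = 0.00129). The iPSC values were close to each other and the EpiSC lay on either side. Dnajc2, a ribosome-associated chaperone, and Anp32e, a chaperone of the histone variant H2A.Z, had differences of -2.56 (adjusted p = 0.0338) and -3.06 (0.034), each again with the NOD EpiSC above the 129 line, at 212.9 against 57.1 and 258.9 against 40.8 CPM. Pram1, an adaptor of myeloid cells, differed by -4.24 (adjusted p = 0.0162), at 310.7 against 24.5 CPM in the EpiSC.

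**Figure D4:**
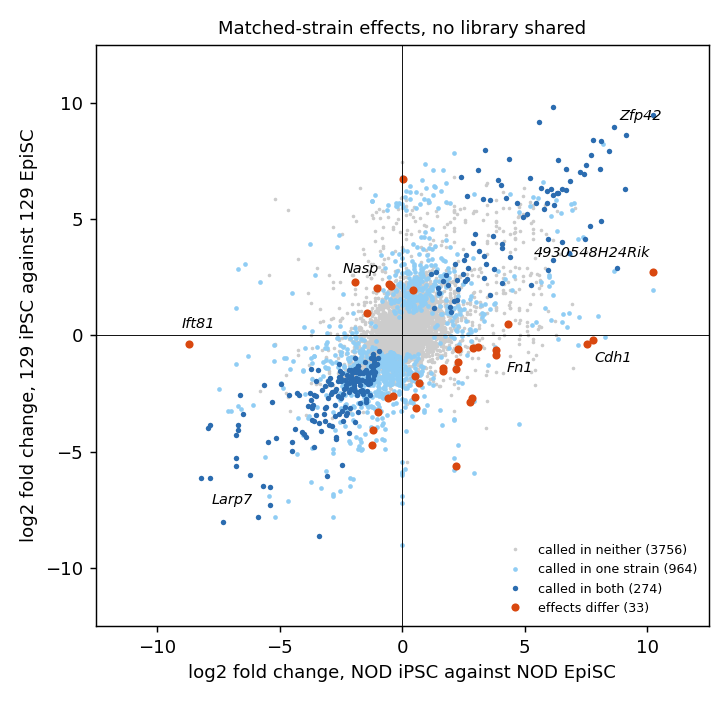
Log2 fold change of 129 iPSC against the 129 EpiSC (vertical axis) against that of NOD iPSC and the NOD EpiSC (horizontal axis), each point 1 of the 4994 genes tested. Colors mark genes past the threshold in neither, 1 or both strains, and red marks the genes whose effects differed. Of the 274 genes changed in both, 269 lie in the lower left or upper right quadrant.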

How the data were processed

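For each library the authors deposited raw counts of read pairs per gene, made with HTSeq after trimming with Trimmomatic and alignment to GRCm38 with TopHat2 2.1.1, per the submitters' processing notes and methods. The strand setting and other versions are not given in the sources used here. The rows for pairs on no gene, ambiguous or not aligned uniquely were kept out of library sizes and tests. Of 23420 genes, 23037 (98.4%) were matched by symbol to GENCODE M21, which gave positions, strands and opposite-strand exon overlap. miRNA sequences came from RefSeq (GRCm38.p6).

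The counts, scaled by TMM and kept by filterByExpr, went into the quasi-likelihood test of edgeR 4.0.16 (glmQLFit and glmQLFTest, R 4.3.3), with 0.05 as the threshold for the Benjamini-Hochberg adjusted p. The first fit held iPSC, ESC and EpiSC, the second 6 groups of strain and state. No label says that libraries of a group came from separate cultures other than by clone, so p-values measure the spread between these libraries. CPM values use the TMM sizes of the first fit. DESeq2 1.42.0 and limma 3.58.1 (voom) were alternatives, with filters, library sizes, subsets of libraries, the clone as a block and the conditions of the source names. A simulation took its spread from the fit, the same for EpiSC as for the other groups. Its rates below are therefore not the rates of false calls in these data. On simulated data with log2 fold changes of 2, 71.9% of changed genes were recovered for iPSC against EpiSC (3549 genes) and 45.4% for the 129 comparison (4231 genes), and 5.00% and 5.68% of calls were false.

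The members and gene lists were chosen with earlier results of these data known. Named genes were the 10 of smallest adjusted p in each direction whose groups did not overlap and that had not been described before, 6 in each direction without opposite-strand exons and with at least 30 counts by size of change, up to 4 changed members of each list, the marker genes, and 5 in each direction for the difference between strains. Some members of the lists are not reported by name here. Other genes named (Gbx2, Dppa4, Pecam1, Sall4, Lin28a, Dnmt1, Ldha, Mtr, H19, overlap partners and members without enough counts) were chosen after their values were seen.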

Additional observations from a re-analysis of the deposited data

Results flagged for a closer look

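In the WSB (4 libraries) and 129 iPSC (6 libraries), 187 pairs of a named gene and a group were searched for a library that stood apart from the rest of its group. This was so in 19 (10.2%). The rule flags about 1 in 20 for normally distributed values, but a gene counted in only 1 library of its group is always flagged. Single cases therefore carry little weight. WSB clones 23, 25 and 28 had 95702, 99367 and 107623 gene counts, against 189587 in clone 12. Female WSB clone 28 was the highest for Klf4 (371.6 CPM, next 239.3), Lrriq4 (361.9, next 201.4) and Glyctk (9.78, next 0), and the lowest for 4930483K19Rik (254.3, next 446.6) and Jak1 (88.0, next 108.9). Female WSB clone 23 was the highest for Suv39h1 (3044 CPM, next 1663), Car9 (33.6, next 0) and Cyp51 (67.1, next 32.7), and male WSB clone 25 the lowest for Pi4kb (185.2, next 234.7).

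Among the 129 iPSC, male clone 1 in ESC/LIF was the highest for Zfp57 (447.5 CPM, next 283.0), Sox11 (48.6, next 16.5) and Slc38a1 (184.8, next 110.7), and in 2iS for Rpl7 (337.4, next 241.3). Male clone 17 in ESC/LIF, the library with the fewest gene counts, was the highest for Serpinh1 (24.6 CPM, next 5.50) and Nes (61.5, next 16.5), and in 2iS for 4833422C13Rik (8.04, next 0). Female clone 5 was the lowest for Sox2 (236.1 CPM, next 360.0) and the highest for Slc18a2 (167.6, next 82.7), and female clone 8 the highest for Ctnnb1 (401.3, next 270.7). Values of 9.78 CPM or less are single counts.

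The iPSC to EpiSC difference was itself different in NOD and 129, by the edgeR test of the difference, in 11 named genes. The differences, NOD minus 129 on the log2 scale, were 3.82 for Tdgf1 (adjusted p = 0.034), 4.45 for Fn1 (0.000277), 3.45 for 2700060E02Rik (0.00129), 7.92 for Cdh1 (0.00129), 3.22 for Ctsa (0.00317) and 7.50 for 4930548H24Rik (0.00521). They were -2.75 for Nasp (adjusted p = 0.00129), -8.34 for Ift81 (0.00745), -4.24 for Pram1 (0.0162), -2.56 for Dnajc2 (0.0338) and -3.06 for Anp32e (0.034). Fn1, 2700060E02Rik, Ctsa and 4930548H24Rik are overlapped genes. Each difference rests on 1 EpiSC library per strain, and differences of line, passage (38 and 16) and strain cannot be told apart.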

How the results depend on the processing

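Of 86 genes named for iPSC against EpiSC, 51 kept their direction and their side of the threshold under all alternatives with the conditions of the titles, and 86 never changed direction there. With the conditions of the source names, 10 genes were past the threshold (508 at an unadjusted p under 0.05), and Suv39h1 (-0.53), Thbs1 (2.29) and Tnc (2.46) changed direction. For iPSC against EpiSC the count was 1874 without a filter for low genes, 364 where each library had to hold 10 counts or more, 373 among genes without opposite-strand exons and 585 to 1130 with 1 library left out, the lowest without the 129 EpiSC. The share higher in iPSC was 39.7% in the reported fit, 29.6% with DESeq2 (328 of 1108), 77.4% with uniquely aligned read pairs (1110 of 1435) and 24.1% with limma voom (223 of 924).

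In the fit by strain, DESeq2 gave 251 genes for NOD, 559 for 129, 870 for WSB and 59 for the difference between NOD and 129. At least 10 counts in every library gave 149, 375, 431 and 63, and genes without opposite-strand exons 222, 387, 509 and 21. The difference had 68 genes with no filter, 19 with uniquely aligned read pairs, 54 without the ESC and 53 with the 129 iPSC in 2iS only. With 1 library left out, the counts were 233 to 278 for NOD, 956 to 1030 for 129, 760 to 1334 for WSB and 11 to 34 for the difference, lowest without NOD clone 7. Where an arm was left with 1 library, it was assumed to vary as the other groups. The cause of these changes was not tested, beyond the smaller numbers of genes or libraries.

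Clones 1 and 17 of 129 were sequenced in both media, and with the clone as a replicate block in limma voom 915 genes were past the threshold, against 924 without it. Libraries of clone 1 deviated together with a correlation of 0.06, and the consensus correlation within clones was 0.15. The block gave 218 genes higher and 697 lower, against 223 and 701. It moved 4 lists by 1 gene each, the core pluripotency genes from 9 to 8 higher, the DNA methylation genes from 4 to 3, the cell cycle genes from 3 to 2 and the splicing genes from 2 to 1. It was not run for the comparisons by strain. With 1.29% to 1.74% of aligned pairs counted on genes and 3 counts as the limit, genes under about 14.6 to 36.9 CPM could not be assessed in single libraries.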

Other observations

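Other functional groups had few changed genes or changes in both directions, read beside 11.24% higher and 17.08% lower over all genes tested. Of 66 tested C2H2 zinc finger genes, 14 were higher in iPSC and 11 lower, and of 63 genes of ubiquitin conjugation 8 were higher and 8 lower. Of 26 proteasome subunit genes 1 was higher and 0 lower, of 29 splicing and RNA processing genes 2 were higher and 1 lower, and of 17 lysosome and autophagy genes 0 were higher and 3 lower (1 and 1 with class-wise scaling, 3 and 0 with uniquely aligned pairs as library size). Mitochondrial ribosomal protein genes (2 higher and 3 lower of 12, but 5 and 0 with uniquely aligned pairs) and glutathione and redox enzymes (2 and 1 of 12) were also mixed. Ooep, a gene of the maternal complex of oocytes, was the 1 of 3 tested germ line and preimplantation genes that was higher, at 9.37 to 88.0 CPM in the iPSC and no count in the EpiSC (at least 3.14-fold, adjusted p = 0.0137, and 0.0952 and 0.0777 without the NOD and without the 129 EpiSC).

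The EpiSC lines differed from each other in genes that had few counts in iPSC. The keratin genes Krt8 and Krt18 had 244.7 and 203.9 CPM in the 129 EpiSC, 28.8 and 11.5 in the NOD EpiSC and at most 87.5 and 78.3 in the iPSC. Cldn6, a tight junction protein of early epithelia, had 146.8 CPM in the 129 EpiSC, no count in the NOD EpiSC and 0 to 36.9 CPM in the iPSC. Zeb2, a repressor of E-cadherin, had 282.0 CPM in the NOD EpiSC, where Cdh1 had no count, 65.3 in the 129 EpiSC and no count in the 12 iPSC, and it overlaps Zeb2os on the opposite strand. With 1 library per line these values have no replicate, and they were chosen after they were seen.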
